A study of Mus musculus with 9 samples.

Results

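The Notch pathway and the fate gene Atoh1 were followed in mouse AKP tumoroids, tumour organoids grown in culture, as a set of 10 genes. The set held the receptors Notch1, Notch2 and Notch3, the ligands Dll1, Dll4, Jag1 and Jag2, the glycosyltransferase gene Lfng, the target gene Hes1 and Atoh1 itself. They were chosen by name, as the rows of the count table whose Ensembl identifier carries one of these symbols in the GENCODE M21 annotation of GRCm38. They are 10 of the 21253 genes in the table. Of the 10, 9 were among the 12535 genes that passed a filter on low counts and were tested, and Notch3 was not.

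Notch signalling runs between touching cells. A Delta-like or Jagged ligand on one cell binds a Notch receptor on its neighbour, the receptor is cut by an ADAM protease and then by gamma-secretase, and its freed intracellular part joins Rbpj and a Mastermind protein in the nucleus, where it switches on genes such as Hes1. In the intestinal epithelium Hes1 represses Atoh1, cells that keep Atoh1 become secretory cells and carry Delta-like ligands, and their neighbours with active Notch stay undifferentiated or become absorptive.

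RNA was sequenced from 9 samples of the organoids, all with a doxycycline-dependent hairpin against Apc (shAPC in the titles), in 3 groups of 3. In the control group doxycycline was kept, which the labels call Apc off, although Apc RNA was still measured. In the other groups doxycycline had been taken away for 2 days or for 7 days to restore Apc, which the labels call early and late stage differentiation. The labels do not spell out the letters AKP. Restoring Apc, removing the drug and the days that passed changed together and cannot be told apart. Since the labels mark replicates as technical ones, the p-values cover the spread between these samples and may leave out that between separate cultures.

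The samples held 24143589 to 32277040 counts each, and every pair of replicates differed by more than sampling noise. Apc, the targeted gene, stood at 6.8 to 8.84 CPM (counts per 1e6) in the controls, at 24.8 to 38.1 CPM after 2 days and at 67.9 to 92.9 CPM after 7. All 8 epithelial markers were expressed, with a summed level of 9710 to 12800 CPM in the controls, of 14400 to 16400 CPM after 2 days and of 26700 to 36400 CPM after 7. Keratin genes made up most of it, with Krt8, Krt18 and Krt19 at means of 3820, 2290 and 2760 CPM in the controls. At 7 days these 3 were at 11900, 2930 and 12200 CPM, while Cdx2 was at 171, 178 and 165 CPM in the 3 groups. Fibroblast markers summed to 0.0865 to 0.451 CPM at 7 days and to 0.781 to 1.12 CPM in the controls. The 7 immune markers summed to at most 1.99 CPM before 7 days and to 3.81 to 5.8 CPM at 7 days. Of these only Cd68 and Csf1r passed the filter, and both rose at 7 days, to means of 3.36 and 0.956 CPM. Ptprc had 4, 14 and 7 counts per group, Cd3e 6, 8 and 4, and Cd79a 7, 7 and 4. Itgam had 2, 6 and 10 counts and Fcer1g 3, 5 and 0. CPM here are scaled by TMM factors, which were 0.785 to 0.874 at 7 days and 1.073 to 1.125 in the controls.

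At 2 days, 5 of the 9 tested genes of the set differed from the controls (edgeR quasi-likelihood test, Benjamini-Hochberg adjusted p under 0.05). Dll1 and Atoh1 rose, and Jag1, Jag2 and Lfng fell. Over all genes tested, 23.7% were called in that comparison, 13.1% higher and 10.6% lower. At 7 days 8 of the 9 were called, a share near the background, since 82.3% of all genes were called, 40.5% higher and 41.8% lower. Notch1, Dll1, Dll4, Hes1 and Atoh1 rose and Jag1, Jag2 and Lfng fell. From 2 to 7 days 7 of the 9 were called, 5 upward and 2 downward, against 79.1% of all genes, 39.2% higher and 39.9% lower. The samples of the groups did not overlap for 6 of the 9 genes at 2 days, 8 at 7 days and 7 between the later groups, against 39.3%, 82.3% and 79.3% of all genes. With library size alone in place of TMM factors, 3 were called higher and 4 lower at 7 days against control. All genes then split 3675 higher and 6876 lower. Against 2 days 4 of the set were called higher and 4 lower, beside 3281 and 7041 of all genes. The median log2 fold change of the 9 was -0.1 at 2 days and 0.34 at 7 days, and that of all genes was 0.00 and -0.03. Both comparisons with control use the same 3 control samples.

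**Figure D1:**
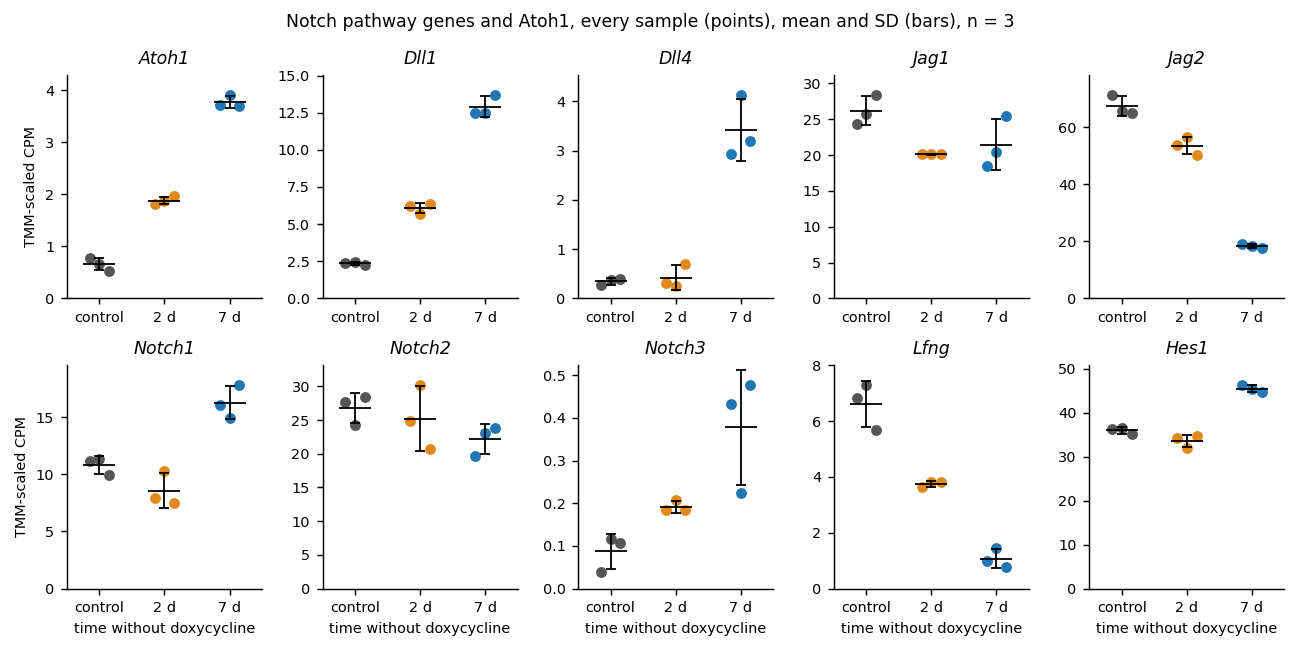
CPM of each of the 10 genes (vertical axes, linear, each starting at 0) in the control, 2-day and 7-day samples (horizontal axes). Points are single samples, and bars are the mean and SD of 3. Dll1 and Atoh1 climb at each step, Jag2 and Lfng fall at each step, and 1 of the 7-day samples of Jag1 lies among the controls.

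Among the ligands, the Delta-like genes rose and the Jagged genes fell. Dll1 (ENSMUSG00000014773, chromosome 17, 15367354 to 15376872, minus strand) encodes the Delta-like ligand that secretory progenitors carry in the intestine. It was at 2.36, 2.44 and 2.27 CPM in the controls, 6.19, 5.68 and 6.32 at 2 days, and 12.5, 12.5 and 13.7 at 7 days. The 3 groups did not overlap. The log2 fold change against control was 1.36 ± 0.12 (SE) at 2 days (edgeR adjusted p = 7.1e-07) and 2.45 ± 0.12 at 7 days (adjusted p = 2.6e-11), and it was 1.09 ± 0.10 from 2 to 7 days (adjusted p = 1.1e-07). Dll1 was thus 2.57-fold the control level at 2 days and 5.46-fold at 7 days.

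Dll4 (ENSMUSG00000027314, chromosome 2, 119325784 to 119335962, plus strand), the Delta-like ligand that acts beside Dll1 in the crypt and is also a gene of endothelial tip cells, changed later. Its controls had 0.27, 0.373 and 0.391 CPM, its 2-day samples 0.306, 0.242 and 0.706, and its 7-day samples 2.94, 4.13 and 3.19. These levels rest on 31, 40 and 265 counts per group. The 2-day samples lay on both sides of the controls, with a log2 fold change of 0.28 ± 0.41 (edgeR adjusted p = 0.67), while all 7-day samples lay above every other sample, with 3.28 ± 0.29 against control (adjusted p = 4.3e-08) and 3.00 ± 0.27 against 2 days (adjusted p = 8.2e-08). Of 8 endothelial markers 3 could be tested. Against control only Tie1 of them was called at 7 days, and against 2 days Tek (log2 fold change 0.88) and Vwf (1.14) rose while Tie1 was at 0.01. The 8 summed to 2.2 to 2.73 CPM in the controls, to 2.25 to 2.54 CPM after 2 days and to 2.89 to 3.89 CPM after 7. Emcn was at 0 in every sample, and Kdr had 1 count over the controls and 0 in the later groups. The part of these markers in the Dll4 values was not tested.

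Jag2 (ENSMUSG00000002799, chromosome 12, 112907819 to 112929776, minus strand), a Jagged-type ligand, fell at each step. It was at 71.4, 65.9 and 64.9 CPM in the controls, 53.8, 56.6 and 50.4 at 2 days, and 19.1, 18.2 and 17.7 at 7 days. The groups did not overlap, and the 7-day samples were the lowest by a wide gap. The log2 fold change was -0.33 ± 0.08 at 2 days (edgeR adjusted p = 0.0054), -1.88 ± 0.08 at 7 days (adjusted p = 1.1e-11) and -1.55 ± 0.08 between the later groups (adjusted p = 1.5e-10).

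Jag1 (ENSMUSG00000027276, chromosome 2, 137081456 to 137116644, minus strand), the other Jagged ligand, moved little. Its controls had 24.4, 25.7 and 28.4 CPM, its 2-day samples 20.1, 20.2 and 20.1, and its 7-day samples 18.5, 20.4 and 25.4. All 2-day samples lay below the controls, and 1 of the 7-day samples lay within them. The log2 fold change was -0.38 ± 0.11 at 2 days (edgeR adjusted p = 0.018) and -0.29 ± 0.11 at 7 days (adjusted p = 0.023). Both calls were lost without control replicate 3 (adjusted p = 0.059 and 0.083), the 2-day call also without 2-day replicate 1 (0.06) or 3 (0.053), and the 7-day call without 7-day replicate 1 (0.11) or 2 (0.093). Library size alone ended the 2-day call (0.066), and removing the GC trend, chosen after seeing the data, ended the 7-day call (0.078). From 2 to 7 days there was no call (0.09 ± 0.11, edgeR adjusted p = 0.45).

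Per kilobase of exon (RPKM over the union of a gene's exons), the makeup of ligand RNA shifted. Jag2 was the most abundant of the 4 in the controls, at 9.68 RPKM, followed by Jag1 at 4.49, Dll1 at 0.558 and Dll4 at 0.0895. At 7 days Jag1 stood at 3.67 RPKM, Dll1 at 3.06, Jag2 at 2.64 and Dll4 at 0.888. As a share of the 4 together, Jag2 made up 65.3% ± 2.62 (SD, n = 3) of ligand RNA in the controls, 60.6% ± 2.0 at 2 days and 25.8% ± 2.62 at 7 days. Dll1 went from 3.77% to 11.3% and 29.8%, and Dll4 from 0.605% to 0.864% and 8.68%. The 4 summed to 14.8 RPKM in the controls, then to 12.7 and 10.3. The order at 7 days depends on the gene length used: over the longest coding transcript Jag2 and Dll1 both had 3.6 RPKM and Jag1 3.82. The shares are a description and were not tested, and in these bulk samples fewer cells of a type and less RNA per cell cannot be told apart.

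**Figure D2:**
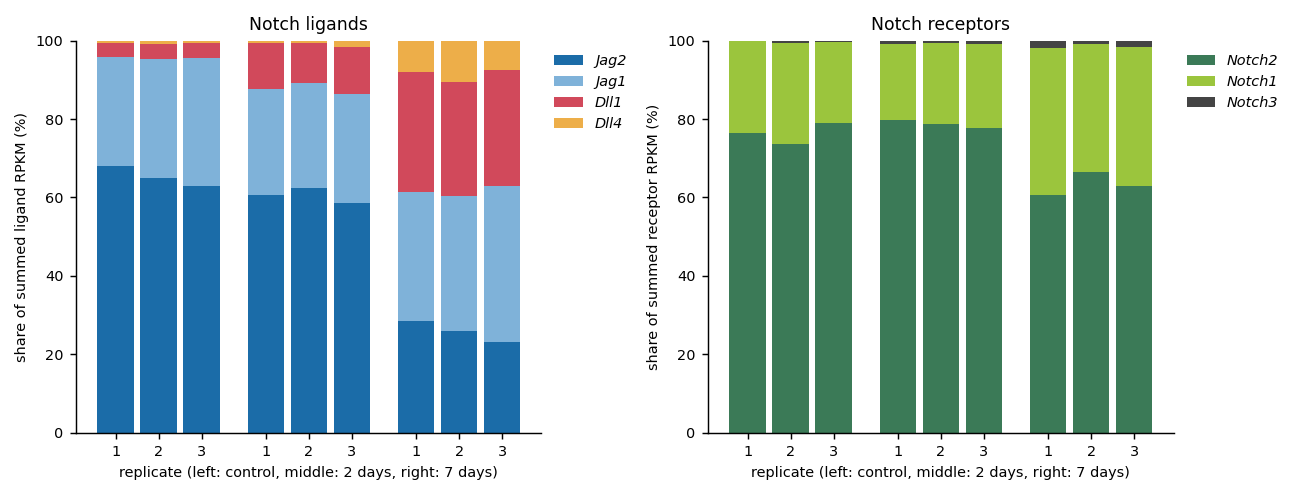
Share of summed RPKM (vertical axis, percent) taken by each of the 4 ligands and each of the 3 receptors in every sample (horizontal axis, by group). Stacked bars add to the whole family. The Jag2 part shrinks to a mean of 25.8% of ligand RNA at 7 days while the Dll1 and Dll4 parts widen, and Notch2 stays the widest part of the receptors.

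Of the 2 receptors that could be tested, Notch1 rose at 7 days and Notch2 was not called. Notch1 (ENSMUSG00000026923, chromosome 2, 26457903 to 26516663, minus strand), which with Notch2 carries the Notch signal in the gut epithelium, was at 11.2, 11.3 and 9.91 CPM in the controls, 7.96, 10.3 and 7.46 at 2 days, and 16.1, 14.9 and 17.8 at 7 days. The 2-day samples overlapped the controls, and the 7-day samples lay above all others. The log2 fold change was -0.34 ± 0.13 at 2 days (edgeR adjusted p = 0.069), 0.59 ± 0.12 at 7 days (adjusted p = 4e-04) and 0.92 ± 0.12 between the later groups (adjusted p = 6.1e-06). The 2-day difference passed the threshold without 2-day replicate 2 (-0.49, adjusted p = 0.011) and without control replicate 3 (adjusted p = 0.048), and also with no filter (0.035) or the GC trend removed (0.047). The 7-day call was lost when samples were scaled by library size alone (0.19, adjusted p = 0.19), a scaling under which the median of all genes was -0.43.

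Notch2 (ENSMUSG00000027878, chromosome 3, 98013527 to 98150361, plus strand) was the most abundant receptor in every group. It was at 27.7, 24.3 and 28.5 CPM in the controls, 24.8, 30.2 and 20.7 at 2 days, and 19.7, 23.1 and 23.8 at 7 days. The 2-day samples spanned a wider range than the controls, and the 7-day samples lay just below them. Neither difference from control was called (-0.09 ± 0.12, edgeR adjusted p = 0.65, and -0.27 ± 0.13, adjusted p = 0.06). The 7-day value is near the threshold, and it was called without control replicate 2, 2-day replicate 2, 2-day replicate 3 or 7-day replicate 3. It was also called with library size alone (-0.67), upper-quartile factors (-0.37), no filter (-0.28), the 2 groups alone (-0.29) and the GC trend removed (-0.38, chosen after seeing the data).

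Notch3 (ENSMUSG00000038146, chromosome 17, 32120820 to 32166852, minus strand), a receptor best known from vascular smooth muscle and pericytes, was close to the limit of detection. It had 8 counts over the controls (exact Poisson 95% interval 3.45 to 15.8), 18 at 2 days (10.7 to 28.4) and 29 at 7 days (19.4 to 41.6), where the intervals cover counting error only. Per sample this was 0.0386, 0.115 and 0.107 CPM, then 0.184, 0.208 and 0.184, then 0.433, 0.225 and 0.477. The groups did not overlap, but the gene did not pass the filter and was not tested in the fit. Of 6 pericyte and smooth muscle markers 4 were tested. Against control at 7 days Pdgfrb (1, 7 and 39 counts per group) and Tagln were called higher, beside 40.5% of all genes. Acta2 (log2 fold change -0.21, edgeR adjusted p = 0.16) and Myh11 (0.04, adjusted p = 0.84) were not called there. The 6 summed to 33.5 to 40.1, 36.9 to 47 and 28.4 to 39.7 CPM in the 3 groups, and Rgs5 had 1, 2 and 2 counts. Most of the sum was Acta2, with means of 34.2, 37.8 and 29.6 CPM. The part of these markers in the Notch3 counts was not tested.

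Per kilobase, Notch2 made up 76.3% of the RNA of the 3 receptors in the controls, 78.8% at 2 days and 63.4% at 7 days. Notch1 made up 23.4%, 20.4% and 35.2%, and Notch3 0.333%, 0.811% and 1.44%. The summed level of the 3 receptors was 3.26 RPKM in the controls, 2.97 at 2 days and 3.25 at 7 days. Over the longest coding transcript the Notch1 share was 30.8%, 27.2% and 44.2%, so its size depends on the gene length used while its order across the groups does not.

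Several of these genes share exon bases with other annotated genes. Where the partner is on the opposite strand, reads can be told apart only if strand was kept and used in counting, which the labels do not state. Notch1 shares 1068 and 414 exon bases with 2 annotated genes on the opposite strand, Dll1 shares 867, Notch3 488 and Dll4 214, each with 1 gene on the opposite strand. Notch2 shares 541 with 1 gene on its own strand, where strand could not tell the reads apart. None of these partners is in the count table.

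Lfng fell at each step and had the lowest log2 fold change of the 9 tested genes at 7 days. Lfng (ENSMUSG00000029570, chromosome 5, 140607320 to 140615545, plus strand) encodes lunatic fringe, which adds a sugar to Notch receptors and so favours their response to Delta-like over Jagged ligands. It was at 6.84, 7.29 and 5.68 CPM in the controls, 3.64, 3.81 and 3.81 at 2 days, and 0.995, 1.46 and 0.77 at 7 days, from 591, 353 and 83 counts per group. The groups did not overlap. The log2 fold change was -0.82 ± 0.15 at 2 days (edgeR adjusted p = 0.001), -2.61 ± 0.19 at 7 days (adjusted p = 4.2e-09) and -1.80 ± 0.20 between the later groups (adjusted p = 7.9e-07), which made Lfng 1.76-fold lower than control at 2 days and 6.12-fold lower at 7 days.

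Of 4 other genes that glycosylate the receptor, 3 were tested. None was called at 2 days and 2 were at 7 days, beside 23.7% and 82.3% of all genes. At 7 days Poglut1, which adds glucose to the receptor, fell from 35.0 to 17.0 CPM (log2 fold change -1.04 ± 0.09, edgeR adjusted p = 2.4e-08), and Rfng, radical fringe, fell from 39.3 to 29.4 CPM (-0.42). Pofut1, which adds the fucose that fringe proteins extend, was at 35.7 and 40.4 CPM (0.18, adjusted p = 0.073). Mfng, manic fringe, had 5, 7 and 4 counts per group.

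Most genes of the proteases that cut ligand and receptor were higher at 7 days. Of 9 cleavage genes 1, Furin, rose at 2 days (log2 fold change 0.31, edgeR adjusted p = 0.012), where 23.7% of all genes were called. At 7 days 7 rose and 2 fell, with a median of 0.68, where 40.5% of all genes were called higher and 41.8% lower. Ncstn, the gamma-secretase subunit nicastrin, rose from 86.0 CPM in the controls and 93.6 at 2 days to 287 at 7 days (1.74 ± 0.09, adjusted p = 1e-10). The gamma-secretase genes Aph1a (0.67) and Psenen (0.80) rose as well, and Adam17 and Psen2 fell by 0.72 and 0.45.

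Of 14 genes for ligand activity and receptor turnover 13 were tested, and 2 rose and 1 fell at 2 days, and 7 rose and 4 fell at 7 days (median 0.77). Both shares are near those of all genes, 23.7% and 82.3%. Both genes called upward at 2 days belong to the Neuralized family of ubiquitin ligases. Neurl3 was at 139, 122 and 109 CPM in the controls, 294, 280 and 267 at 2 days, and 644, 601 and 535 at 7 days, with no overlap between groups (1.18 ± 0.10 at 2 days, edgeR adjusted p = 4.4e-07; 2.26 ± 0.10 at 7 days, adjusted p = 1.7e-11). Neurl1b rose from 24.3 to 41.2 and 75.5 CPM (0.76 and 1.64), and Neurl1a fell by 0.55 at 2 days. Mib2, a ligase of the Mind bomb family that acts on Notch ligands, was called at 7 days, from 6.93 to 24.9 CPM (1.85), as was Dtx3l of the Deltex family (1.43), while Mib1 fell by 0.76 at 7 days.

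In the nucleus, 16 genes of the Rbpj complex and its corepressors were tested, with 3 higher and 2 lower at 2 days and 9 higher and 2 lower at 7 days (medians -0.01 and 0.43), beside 23.7% and 82.3% of all genes called. Maml2, a Mastermind coactivator, was at 3.67, 3.47 and 3.52 CPM in the controls, 6.37, 7.55 and 6.72 at 2 days, and 12.1, 13.2 and 15.1 at 7 days, without overlap (0.95 ± 0.13, edgeR adjusted p = 4.8e-05, and 1.93 ± 0.12, adjusted p = 8.2e-10). Of the Groucho-type corepressors that act with Hes proteins, Tle2 (2.27), Tle4 (0.68) and Tle1 (0.62) rose at 7 days. At 2 days Cir1 (0.34) and Tle2 (0.81, adjusted p = 0.038 in edgeR) rose, and the Tle2 call was lost when any of these samples was left out: replicates 1 and 3 of the controls, 2 and 3 of the 2-day group and 2 of the 7-day group. Tle3, named after its values were seen, had the 2-day samples below the controls (log2 fold change -0.86 ± 0.10, adjusted p = 1.1e-05). Rbpj, the DNA-binding protein of the pathway and also named after its values were seen, went from 53.9 to 49.5 and 40.7 CPM and fell at 7 days (-0.40 ± 0.08, adjusted p = 2.6e-04).

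Hes1 (ENSMUSG00000022528, chromosome 16, 30064384 to 30067796, plus strand), the repressor that Notch switches on in the gut, moved by less than the ligands Dll1 and Jag2 did. It was at 36.2, 36.6 and 35.1 CPM in the controls, 34.2, 32 and 34.6 at 2 days, and 46.3, 45.3 and 44.8 at 7 days. The 2-day samples lay just below the controls and the 7-day samples above all others. The 2-day difference was not called (log2 fold change -0.10 ± 0.07, edgeR adjusted p = 0.38), and Hes1 rose at 7 days against control (0.34 ± 0.07, adjusted p = 5.6e-04) and against 2 days (0.43 ± 0.07, adjusted p = 6.1e-05).

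The rise of Hes1 depends on the scaling. With samples scaled by library size alone it was -0.06 at 7 days against control (edgeR adjusted p = 0.41) while the median of all genes was -0.43, and relative to that median Hes1 was 0.37 higher under both scalings. With a trend on gene GC content removed, an alternative chosen after seeing the data, the value was 0.15 (adjusted p = 0.059). Against 2 days it was 0.02 with library size alone (adjusted p = 0.84) and 0.24 with the GC trend removed (adjusted p = 0.0045).

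The other genes listed as targets were mostly below the filter. Of 10 listed, 3 were tested, Hes3 and Hes5 had 0 counts in every sample, and Hes7, Hey1, Hey2, Heyl and Olfm4 had at most 11 counts in any group. Nrarp, which encodes a Notch-induced inhibitor of the pathway, was at 4.4, 5.65 and 4.79 CPM in the controls, 5.94, 6.54 and 6.11 at 2 days, and 2.25, 2.44 and 1.94 at 7 days. Its 2-day samples lay above the controls without a call (0.31 ± 0.13, edgeR adjusted p = 0.089), and it fell at 7 days (-1.17 ± 0.15, adjusted p = 2.6e-06). Hes2 had 5, 6 and 84 counts per group and rose at 7 days (4.18 ± 0.36, adjusted p = 3.4e-08), and Hes6 fell by 0.60 at 2 days and by 0.29 at 7 days. Hes2 and Hes6 are Hes family genes, and whether they answer to Notch in these samples was not tested. Among the 6 other receptors and ligands listed, Dlk2, a Delta-like homologue, was the 1 tested and rose (0.71 and 0.78), and Notch4, Dll3, Dlk1, Dner and Cntn1 had at most 15 counts in any group. Over all 59 other pathway genes 45 were tested, with 7 higher and 4 lower at 2 days and 25 higher and 12 lower at 7 days (medians 0.08 and 0.55). These shares called are near those of all genes, 23.7% and 82.3%. Of all genes 40.5% were called higher and 41.8% lower at 7 days. With library size alone the 7-day split was 22 higher and 18 lower, beside 3675 higher and 6876 lower of all genes.

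**Figure D3:**
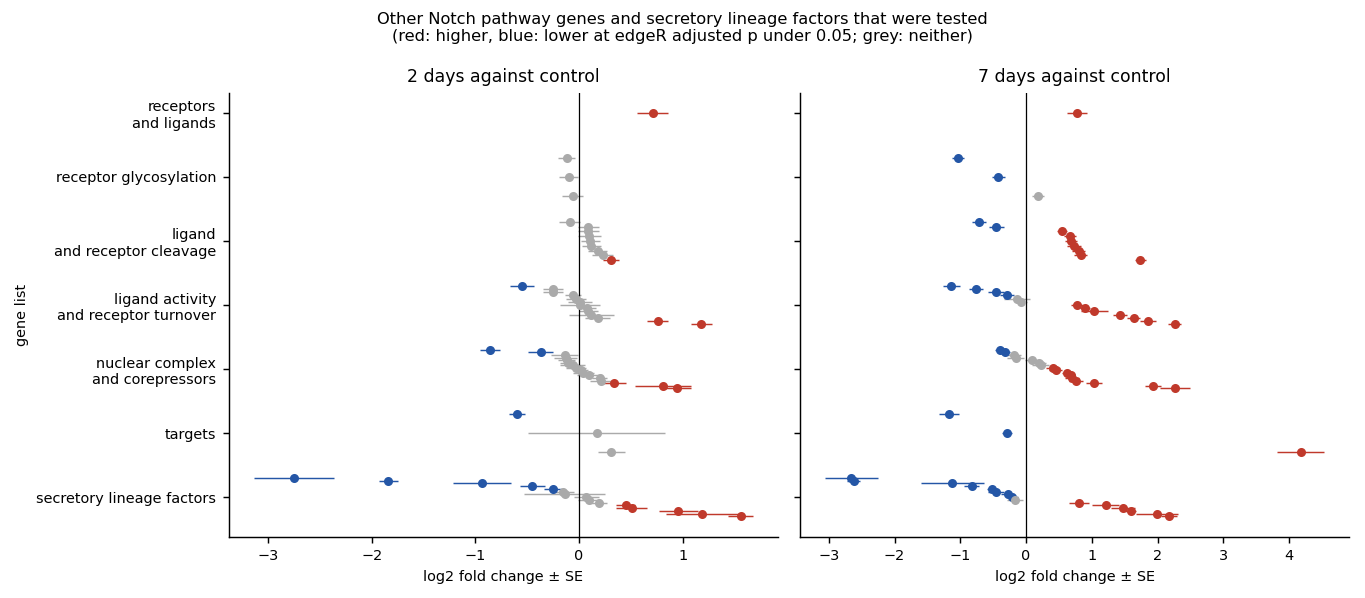
Log2 fold change against control (horizontal axis) at 2 and at 7 days of the tested genes of the other Notch pathway lists and the secretory lineage list, by list. Points are single genes with bars of 1 SE, coloured by the edgeR call. The 7-day points spread further than the 2-day points in each list with more than 1 tested gene, on both sides of 0 in 6 of the lists drawn.

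Atoh1 (ENSMUSG00000073043, chromosome 6, 64729125 to 64731245, plus strand, 1 exon) encodes the transcription factor that commits intestinal cells to secretory fates. It was at 0.772, 0.66 and 0.533 CPM in the controls, 1.81, 1.87 and 1.96 at 2 days, and 3.72, 3.91 and 3.7 at 7 days, from 58, 177 and 291 counts per group. No sample of a group overlapped another group. The log2 fold change was 1.52 ± 0.19 at 2 days (edgeR adjusted p = 2.3e-05), 2.52 ± 0.17 at 7 days (adjusted p = 2.1e-09) and 1.00 ± 0.14 from 2 to 7 days (adjusted p = 1.1e-05). Atoh1 was thus 2.87-fold the control level at 2 days and 5.76-fold at 7 days, yet at 7 days it was still at 1.78 RPKM, below Hes1 at 22.3 RPKM.

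**Figure D4:**
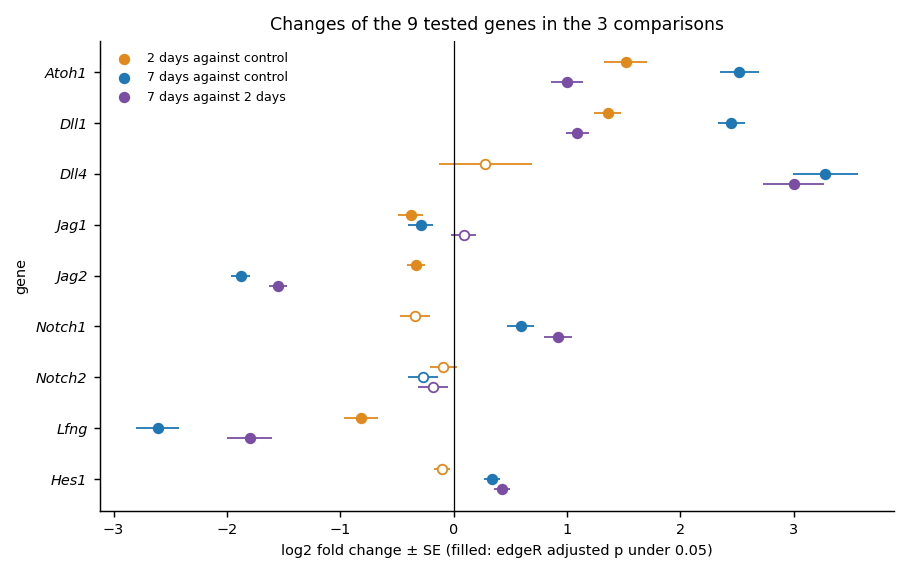
Log2 fold change against control at 2 and at 7 days, and of 7 against 2 days (horizontal axis), of the 9 tested genes of the set, with bars of 1 SE from the edgeR fit and filled points for calls. Atoh1 and Dll1 lie right of 0 in all 3 comparisons, Lfng and Jag2 left of it, and Dll4 goes from 0.28 at 2 days to 3.28 at 7 days against control.

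Atoh1 and Dll1 followed a similar course over the samples. Of 12114 genes compared, Dll1 was the nearest to Atoh1, with a root mean square difference of 0.131 in centred log2 CPM over the 9 samples, followed by the chemokine gene Cx3cl1 (0.133), which went from 26.2 to 62.3 and 137 CPM, and by Neurl3 (0.14). The genes nearest to Dll1 were Ern2 (0.109), a goblet cell stress sensor that went from 5.89 to 14.0 and 30.3 CPM, Cbln3 (0.124) and Ccdc71l (0.126). In that order Atoh1 had rank 6 (0.131). Hes1 lay nearest to Trmt2b (0.043), Dynll2 (0.045) and Naxd (0.046). The 9 points fall into 3 groups and share libraries and depth across genes, so this is a description.

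The RefSeq promoter windows of Atoh1 and Dll1, which rose together, and of Jag2 and Lfng, which fell, are shown because these 4 genes kept their direction and call at both times under each alternative that tested them. Each holds 250 bases before and 50 after the start, on the gene's own strand from 5′ to 3′, in GRCm38.p6. Capitals mark matches on either strand to TGGGAA (the core recognised by Rbpj), CACGTG and CAGCTG (E-boxes, the kind of site bound by Hes1 and Atoh1 type factors), CACNAG (the N-box of Hes proteins) and CTTTGAT (the Tcf/Lef core). The windows are chr6:64728875-64729174 for Atoh1, chr17:15376883-15377182 for Dll1 (of 2 Dll1 windows, the one nearest the annotated gene start), chr5:140607091-140607390 for Lfng and chr12:112929446-112929745 for Jag2.
Atoh1: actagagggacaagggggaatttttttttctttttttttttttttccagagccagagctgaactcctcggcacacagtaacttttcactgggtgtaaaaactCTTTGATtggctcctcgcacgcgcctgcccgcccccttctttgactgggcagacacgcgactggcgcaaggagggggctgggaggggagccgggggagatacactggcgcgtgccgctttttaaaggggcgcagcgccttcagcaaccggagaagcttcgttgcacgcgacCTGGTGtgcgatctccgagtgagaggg
Dll1: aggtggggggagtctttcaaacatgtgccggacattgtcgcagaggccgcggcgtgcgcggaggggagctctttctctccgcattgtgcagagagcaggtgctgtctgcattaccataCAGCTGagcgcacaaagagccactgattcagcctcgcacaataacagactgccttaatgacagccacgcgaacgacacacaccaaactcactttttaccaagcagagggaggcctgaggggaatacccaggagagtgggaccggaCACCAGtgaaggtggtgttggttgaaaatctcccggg
Lfng: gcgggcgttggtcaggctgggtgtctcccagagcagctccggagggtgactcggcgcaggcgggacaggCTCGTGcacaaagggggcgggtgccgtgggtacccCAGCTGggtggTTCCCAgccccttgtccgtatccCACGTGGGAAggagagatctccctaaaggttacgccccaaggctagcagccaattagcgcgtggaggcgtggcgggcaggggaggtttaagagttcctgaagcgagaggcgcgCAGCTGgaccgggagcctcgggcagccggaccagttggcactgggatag
Jag2: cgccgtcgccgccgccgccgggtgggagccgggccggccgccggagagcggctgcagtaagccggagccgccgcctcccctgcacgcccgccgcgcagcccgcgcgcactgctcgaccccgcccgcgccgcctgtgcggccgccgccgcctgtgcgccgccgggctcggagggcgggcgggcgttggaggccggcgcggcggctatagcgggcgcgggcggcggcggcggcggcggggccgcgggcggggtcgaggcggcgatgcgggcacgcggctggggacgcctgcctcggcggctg

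Of the 10 genes 9 had a window, and Lfng was the 1 gene with TGGGAA in it, a motif found in 25.6% of 32851 windows of that length. Its copy 108 bases before the start overlaps a CACGTG, held by 7.15% of windows, and a second copy lies 135 bases before the start on the minus strand. The Atoh1 window holds CTTTGAT 148 bases before the start, a motif in 3.73% of windows, and a CACNAG, which 42.5% of windows hold. The Dll1 window shown holds CAGCTG (16.3% of windows) and CACNAG, while the other Dll1 window holds none of the 5 motifs. The Jag2 window, of 86.0% GC against a median of 52.7% over all windows, also holds none of the 5. A match describes these letters and is not a bound site.

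The other secretory lineage factors did not move as 1 group. Of 24 listed, 15 were tested, with 5 higher and 5 lower at 2 days and 6 higher and 8 lower at 7 days (medians 0.07 and -0.21), beside 23.7% and 82.3% of all genes called. Spdef, a goblet and Paneth cell factor that acts after Atoh1, was at 3.09, 3.5 and 2.73 CPM in the controls, 9.83, 9.62 and 8.29 at 2 days, and 14.0, 14.9 and 13.5 at 7 days, without overlap (1.56 ± 0.12, edgeR adjusted p = 2.4e-07, and 2.18 ± 0.12, adjusted p = 2e-10). Creb3l1 (0.96 and 1.47) and Klf4, a factor of goblet and other differentiated cells (0.45 and 1.59), rose at both times. Creb3l4 (0.51 and 0.81) did so too.

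Gfi1, a target of Atoh1 that holds cells in the goblet and Paneth branch, had 20, 49 and 70 counts per group and rose at 7 days (1.99 ± 0.32, edgeR adjusted p = 3.9e-05). Its 2-day call (1.19 ± 0.35, adjusted p = 0.023) was lost without control replicate 2 or 3 and without 2-day replicate 1 or 3, and with the DESeq2 Wald test (adjusted p = 0.054). Sox9, a factor of stem and Paneth cells, was at 126, 135 and 113 CPM in the controls, 34.5, 37.6 and 32.7 at 2 days, and 22.1, 20.4 and 18.6 at 7 days, with the smallest p of the list at both times (-1.84 ± 0.09, adjusted p = 1.8e-09, and -2.62 ± 0.10, adjusted p = 1.6e-12). Pou2f3, the tuft cell factor, had 53, 8 and 7 counts per group and fell by 2.75 ± 0.39 and 2.66 ± 0.4. Foxa3 also fell at both times (by 0.45 and 0.46). Cbfa2t2 was called at both times, with its 2-day value at the threshold (-0.25, adjusted p = 0.05 in edgeR). Under library size alone, upper-quartile factors, no filter or the 2 groups alone, 4 and not 5 factors of the list were called lower at 2 days. Neurog3, the enteroendocrine factor, had 24, 20 and 25 counts per group and was not tested. Gfi1, Neurog3, Creb3l4, Pou2f3, Foxa3 and Cbfa2t2 were named after their values were seen, as were Furin, Adam17, Psen2, Neurl1a, Mib1 and Cir1 above.

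Markers of the secretory cell types moved with these genes as follows. Of 7 goblet markers 6 rose at both times, and Galnt12 fell at 7 days. Over all genes tested, 13.1% were called higher and 10.6% lower at 2 days, and 40.5% and 41.8% at 7 days. The 7 goblet markers summed to 58.1 to 64.4 CPM in the controls, to 234 to 255 CPM after 2 days and to 3360 to 4050 CPM after 7. None of the 7 enteroendocrine markers passed the filter, and together they stayed under 1 CPM in every sample. All 3 tested Paneth markers fell at both times, and the 5 listed summed to 26.8 to 28.2, 5.47 to 7.7 and 5.02 to 7.18 CPM. Most of that sum was Itln1, with means of 21.6, 4.8 and 5.48 CPM. The defensin genes Defa17 and Defa24 had 10, 4 and 0 and 9, 4 and 0 counts per group. The 5 tuft markers summed to 1.29 to 1.97 CPM in the controls, to 0.951 to 1.38 CPM after 2 days and to 1.72 to 2.22 CPM after 7. Avil, the 1 tested, was not called at 2 days (log2 fold change -0.29, edgeR adjusted p = 0.4). At 7 days it was called higher (0.49, adjusted p = 0.047). Dclk1 had 19, 8 and 2 counts per group and Trpm5 27, 16 and 22. The part of these shifts in the values of Atoh1, Dll1 or Lfng was not tested.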

How the data were processed

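For 9 poly(A) RNA libraries of mouse organoids the authors deposited raw counts of reads per gene. Per the submitters' processing notes the tools were STAR 2.7.0e, featureCounts and DESeq2 with mm10 and GRCm38. Annotation release, strand setting and filtering were not given in the sources used here. Symbols and positions came from GENCODE M21, which held 21236 of the 21253 identifiers, and promoter windows from RefSeq (GRCm38.p6).

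Counts were scaled by TMM factors, filtered with filterByExpr and fitted in edgeR 4.0.16 (R 4.3.3) with the quasi-likelihood F test, two-sided, on all 9 samples with group as the 1 term. P-values were adjusted by Benjamini-Hochberg over the 12535 genes tested and called under 0.05. SE is the absolute log2 fold change divided by the square root of F. Likeness used log2 CPM with a prior count of 2. Groups were taken from the sample titles.

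The genes and lists were chosen with earlier results of these data known. Every gene of the set is named, and from each other list up to 4 genes with the smallest p in either comparison with control, of which 1 is not reported here. For Atoh1, Hes1 and Dll1 the 3 nearest genes are named. Lists covered Notch pathway roles, secretory lineage factors and markers of epithelium, goblet, enteroendocrine, Paneth, tuft, endothelial, fibroblast, pericyte or smooth muscle and immune cells. Alternatives were other scalings and filters, the DESeq2 1.42.0 Wald test, limma-voom (limma 3.58.1), the 2 groups alone, a replicate block and leaving out each sample.

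The fit was tested on simulated counts with 200 changed genes. For 7 days against control, among 12141 genes, 88.1% of those changed 1.5-fold and 100% of those changed 2-fold were recovered. The changed genes went up and down in equal number, lay above a minimum expected count and had the same fixed dispersion as all others. In the data 82.3% of genes were called in that comparison, so these rates may not carry over to it or to genes of low count.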

Additional observations from a re-analysis of the deposited data

Results flagged for a closer look

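In 4 of 69 tested genes of the set and of the other pathway and secretory lists, all 2-day samples lay on one side of the controls and all 7-day samples on the other. This choice fixes that the later groups differ, so the log2 differences of 7 from 2 days below are descriptions. How many of all genes tested have this pattern was not counted, so the 4 are not set against a background. Against control, Hes1 (edgeR adjusted p = 0.38) and Nrarp (0.089) were not called at 2 days, nor was Tle3 at 7 days (0.062). Hes1 was 0.43 higher on the log2 scale at 7 days than at 2 days, with 33.6 ± 1.44 CPM (SD, n = 3) at 2 days and 45.4 ± 0.758 at 7 days around a control level of 36.0 ± 0.762. With library size alone the Hes1 difference was 0.02. The corepressor gene Tle3 was 1.07 higher, with 16.5 CPM in the controls, 9.1 at 2 days and 19.0 at 7 days. Nrarp went the other way, with -1.49 and group means of 4.95, 6.2 and 2.21 CPM. Bhlha15, a factor of mature secretory cells named after its values were seen, was 2.16 higher, with 62, 34 and 125 counts per group. Its fall at 2 days (-0.94 ± 0.28, edgeR adjusted p = 0.022) was lost without control replicate 1 or 3 or 2-day replicate 1 and with the DESeq2 Wald test (adjusted p = 0.054), and its rise at 7 days was 1.21 ± 0.21 (adjusted p = 8.2e-05). Groups of 3 were not screened for single outlying samples.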

How the results depend on the processing

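Dll1, Jag2, Lfng and Atoh1 kept their direction and call in each comparison under each alternative that tested them, as did Dll4 in both comparisons of the 7-day group. A minimum mean of 5 CPM left 6 genes of the set and 9 secretory factors to test, with 3, 5 and 4 of the set called (2 days and 7 days against control, 7 against 2 days) and 5, 7 and 5 of the factors. With library size alone the split of calls changed from 5080 higher and 5237 lower to 3675 and 6876 at 7 days against control, and from 4912 and 5006 to 3281 and 7041 for 7 against 2 days. Leaving out 1 sample gave 6 to 10 secretory factors called at 2 days, with 6 without control replicate 2 and 6 without 2-day replicate 1. Without the filter Notch3 entered the test with a log2 fold change of 2.01 at 7 days (edgeR adjusted p = 0.0012).

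Values that changed sign follow, all log2 fold changes. With library size alone they were -0.06 for Hes1, -0.23 for Pofut1 and -0.20 for Tle3 at 7 days against control, and -0.32 for Jag1, -0.34 for Dlk2, -0.15 for Pofut1 and -0.11 for Hes6 for 7 against 2 days. With upper-quartile factors Jag1 was at -0.03 and Dlk2 at -0.05, and with the GC trend removed (chosen after seeing the data) Dlk2 was at -0.07, all for 7 against 2 days. Leaving out 1 sample gave -0.24 to 0.04 for Notch2 and -0.33 to 0.53 for Dll4 at 2 days, with the sign changed without 2-day replicate 3, and -0.05 to 0.19 for Jag1 for 7 against 2 days, changed without 7-day replicate 3. Without control replicate 3, Dtx3l was at 0.03 at 2 days. The cause was not tested.

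Same-numbered samples did not deviate together throughout (correlations from -0.13 to 0.48), so the numbers were not taken as pairs in the main fit. Samples of different number had correlations from -0.437 to 0.169. Same-numbered values were highest for control and 7 days, at 0.48 for replicate 3 and 0.332 for replicate 1. A replicate block raised the genes called at 2 days to 4039, and added Notch1 at 2 days (-0.34) and Notch2 at 7 days (-0.27). Depth limits Notch3, Dll4, Gfi1, Pou2f3 and most Hes and Hey genes.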
